A study of Mus musculus with 6 samples.

Results

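Laminins, nidogens and other basement membrane proteins were examined here as 10 genes in 6 Affymetrix mouse M430 2.0 arrays of mouse embryonic fibroblasts. The genes were the laminin chains Lama1, Lama2, Lama4, Lama5, Lamb1 and Lamc1, the nidogens Nid1 and Nid2, Hspg2 and Hmcn1. They were chosen by name, and every probe set that the platform annotation pairs with 1 of them only was taken, which gave 20 probe sets, 4 genes with 1 probe set each and 6 genes with several. They are 10 of the 18194 genes measured, and all 10 had values in all 6 arrays with no filter on low values. Each gene is described by its brightest probe set, and the values are log2 expression values made with RMA, a method that corrects background, gives all arrays the same distribution and combines the probes of a set.

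All cells were immortalized fibroblasts of mixed strain background with both Kdm5a alleles inactivated, taken from subconfluent cultures in medium with serum. They carried the KDM5A-H483A mutant, a form with alanine in place of a catalytic histidine, wild-type KDM5A, or an empty vector, with 2 arrays per group. How the cells were immortalized, whether they were clones, and which promoter drove the reintroduced gene is not stated in the labels. The arrays of a group are labelled biological replicates 1 and 2, called the first and second array below, without a statement on how the cultures were separated. P-values therefore measure the spread between these samples.

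Basement membranes are thin sheets of matrix that underlie epithelia and endothelia and wrap muscle, nerve and fat cells. Laminins are trimers of an alpha, a beta and a gamma chain that polymerise on the cell surface, held there by integrins and dystroglycan. Nidogens bridge the laminin network to a network of collagen IV, and the heparan sulfate proteoglycan perlecan, the product of Hspg2, binds to both. Fibroblasts secrete several of these components, nidogens among them, into the matrix of connective tissue. KDM5A removes methyl groups from lysine 4 of histone H3, a mark of active promoters.

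No basement membrane gene passed the test in any comparison, and the values that moved most were those of Hmcn1 and Lama4 between the 2 arrays within a KDM5A group. Limma, a linear model whose error is shared across genes, called 0 of the 10 genes at an adjusted p under 0.05 when KDM5A-H483A or wild-type KDM5A was set against empty vector, and when the mutant was set against the wild-type form. Over all 18194 genes it likewise called 0 (0%) in each comparison. At an unadjusted p under 0.05 the members counted 0, 0 and 1 in that order, where all genes gave 301 (1.65%), 459 (2.52%) and 694 (3.81%). The 1 was Lama5. These member counts are too small to be read against those shares. For the median gene the 95% confidence interval reached 0.37 above and below the log2 fold change, and for the members from 0.31 (Lama1) to 3.40 (Hmcn1). These widths go with an unadjusted p of 0.05. The adjusted test asks for more, so differences well above 0.37 could also go undetected with 2 arrays a group.

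**Figure D1:**
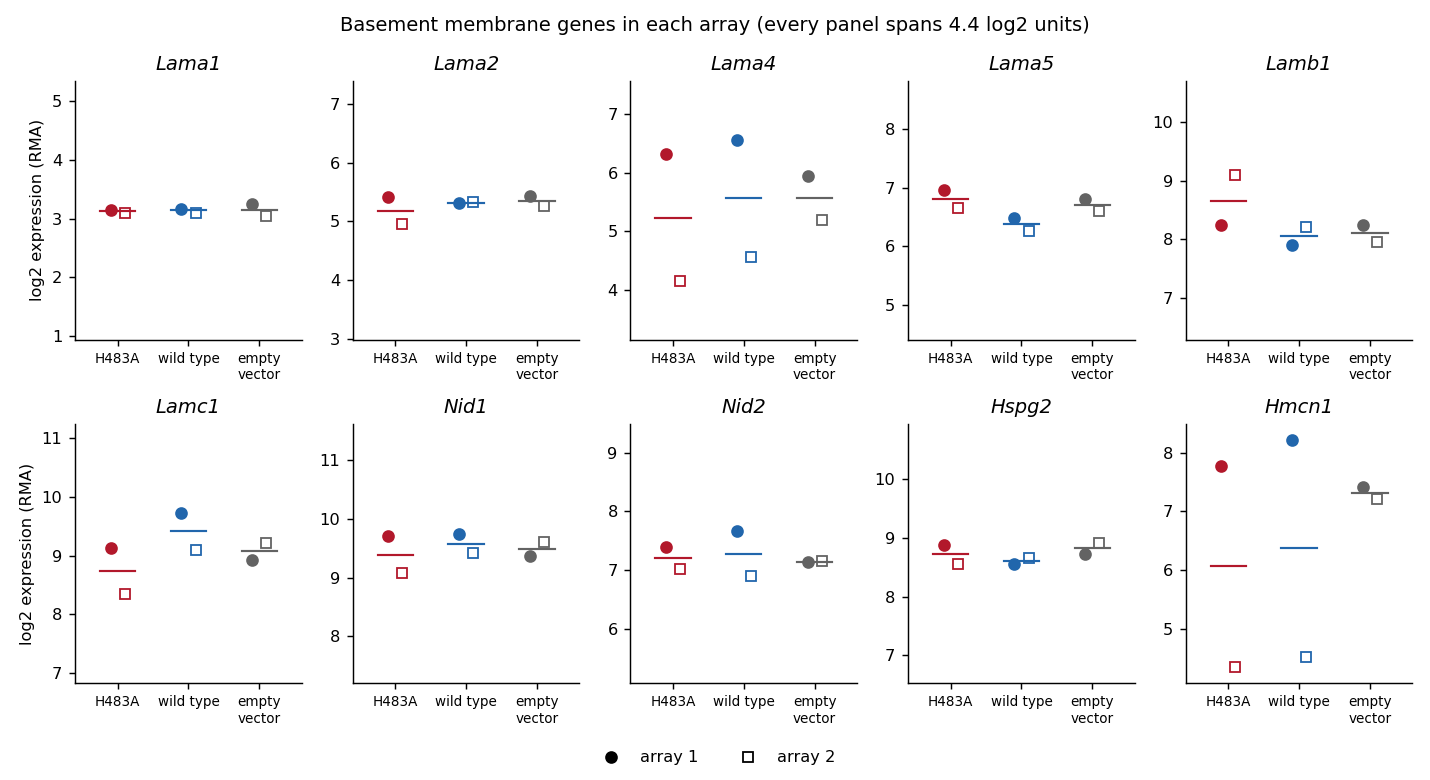
Log2 expression of the 10 basement membrane genes in each array, with KDM5A-H483A, wild-type KDM5A and empty vector from left to right, the first array as a filled circle, the second as an open square and the group mean as a line. Hmcn1 and Lama4 have the widest spread, with both second KDM5A arrays below every other array, and Lama1 lies between 3.04 and 3.24 throughout.

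Of the other values that touch these genes, the Kdm5a probe set with the highest mean stood at 6.11 and 5.89 with KDM5A-H483A, at 5.96 and 5.83 with wild-type KDM5A and at 5.89 and 5.83 with empty vector, and where its probes lie relative to the deletion and the reintroduced sequence is not given, so it checks neither. The fibroblast label was set against 14 marker genes, of which 13 were measured. All 13 lay on average above the median of the whole table, 4.58, and Col1a2, a fibrillar collagen gene, was at 12.53 or above in every array. Among the markers of other cells, the endothelial Pecam1, the epithelial Cdh1 and the leukocyte gene Ptprc lay at or below 3.49 in every array, but some others were brighter. The endothelial receptor gene Kdr lay between 6.24 and 6.65, the Schwann cell gene Sox10 between 6.33 and 6.75, the macrophage receptor gene Csf1r between 6.08 and 6.40 and the keratin gene Krt19 between 5.25 and 7.01. On average 2 of 8 epithelial, 2 of 8 endothelial, 3 of 5 Schwann and glial, 4 of 7 skeletal muscle, 3 of 8 macrophage and 5 of 9 parietal endoderm markers lay above the median of the table. Whether such cells had a part in the member values was not tested. The mean level of the epithelial, endothelial, Schwann cell, skeletal muscle and macrophage lists lay between 4.01 and 4.98 in every array. That of the parietal endoderm list, which includes the matrix gene Sparc, lay between 5.78 and 5.99. Of the same list, Dab2 lay between 8.66 and 9.20 and Gata6 between 6.21 and 6.49, while Sox7, Pth1r and Foxa2 stayed at or below 4.08.

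Promoter windows from RefSeq (GRCm38.p6), each running from 250 bases before a gene's start to 50 bases after it, were at hand for 6 of the 10 genes (Lama2, Lama5, Lamb1, Nid1, Hspg2 and Hmcn1). Those of Hmcn1, Lama5 and Lamb1 are printed because the results turn on these genes, namely the member with the widest spread, the one with the smallest p and the one with the highest fold change for KDM5A-H483A. They were searched for the letters CCGCCC on both strands, since the ARID domain of human KDM5A has been reported to bind this sequence. On the opposite strand it reads GGGCGG, which is also the core of the GC box of the Sp1 factors, so the letters do not tell the 2 apart. Capitals mark each match, and the sequences run 5′ to 3′ on the strand of the gene.
Hmcn1, chr1:150993386-150993685, minus strand: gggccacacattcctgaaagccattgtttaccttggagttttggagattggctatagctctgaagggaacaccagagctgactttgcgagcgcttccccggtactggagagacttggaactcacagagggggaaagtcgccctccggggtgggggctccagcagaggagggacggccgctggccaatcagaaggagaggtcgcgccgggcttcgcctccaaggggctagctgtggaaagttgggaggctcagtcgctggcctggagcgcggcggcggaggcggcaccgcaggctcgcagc
Lama5, chr2:180225810-180226109, minus strand: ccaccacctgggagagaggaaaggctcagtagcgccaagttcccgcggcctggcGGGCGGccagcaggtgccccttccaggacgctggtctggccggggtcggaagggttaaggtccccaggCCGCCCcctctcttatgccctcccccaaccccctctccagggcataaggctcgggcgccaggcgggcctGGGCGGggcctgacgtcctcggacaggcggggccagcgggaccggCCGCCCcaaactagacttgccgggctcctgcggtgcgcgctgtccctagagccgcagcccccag
Lamb1, chr12:31265043-31265342, plus strand: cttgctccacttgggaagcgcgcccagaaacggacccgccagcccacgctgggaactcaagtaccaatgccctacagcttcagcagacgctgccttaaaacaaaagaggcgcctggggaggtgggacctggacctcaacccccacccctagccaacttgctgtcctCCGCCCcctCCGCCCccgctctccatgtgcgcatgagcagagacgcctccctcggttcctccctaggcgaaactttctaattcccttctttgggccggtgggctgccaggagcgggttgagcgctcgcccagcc
The Hmcn1 window held 0 matches, the Lama5 window 4 and the Lamb1 window 2, which start 84 and 75 bases before the gene's start. Hspg2 had 5 matches, and Lama2 and Nid1 had 1 each. At least 1 match was present in 35.7% of all 32851 windows, and 4 or more in 5.49%. The windows of Hspg2, Lama5, Nid1, Hmcn1 and Lamb1 held 27, 24, 20, 19 and 18 CpG dinucleotides, against a median of 7 over all windows, while the Lama2 window held 1. The letters TATAAA were in none of the 6 windows on either strand, and in 13.6% of all windows. Such matches describe the letters only and say nothing about binding in these cells.

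Hmcn1 encodes hemicentin 1, a very large protein of immunoglobulin repeats that in the worm anchors tissues across neighbouring basement membranes. It had the widest spread of the 10 genes. Its single probe set gave 7.78 and 4.35 for the first and second KDM5A-H483A arrays and 8.22 and 4.52 for the wild-type KDM5A arrays, against 7.41 and 7.22 with empty vector. The first array of each KDM5A group was thus above both empty vector arrays and the second far below them, and the groups overlapped. Within a group the first array was 10.8-fold above the second for KDM5A-H483A and 13.0-fold for wild-type KDM5A, against 1.14-fold for empty vector. The second KDM5A arrays, at 4.35 and 4.52, lay below the table's median of 4.58 and may not be above background, so these folds may understate the difference.

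The group means of Hmcn1 were 6.07 ± 2.42, 6.37 ± 2.61 and 7.31 ± 0.13 (SD, n = 2) for KDM5A-H483A, wild-type KDM5A and empty vector. The log2 fold change was -1.25 (SE 1.41, 95% CI -4.65 to 2.16) for the mutant against empty vector, with a limma adjusted p of 0.999. With the wild-type form it was -0.95 (SE 1.41, 95% CI -4.35 to 2.46), with a limma adjusted p of 1. One array set the direction. Without the second KDM5A-H483A array the difference from empty vector was 0.47, and without the first it was -2.96. Without the second wild-type KDM5A array it was 0.90, and without the first -2.79. Between the KDM5A forms the difference was -0.30 (95% CI -3.70 to 3.10), and 1.41 without the second KDM5A-H483A array or 1.55 without the first wild-type array.

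Lama4, the gene of the alpha 4 chain found in vessel walls and mesenchymal tissue, showed the same order of arrays. It stood at 6.31 and 4.16 with KDM5A-H483A and at 6.56 and 4.57 with wild-type KDM5A, against 5.95 and 5.19 with empty vector. The empty vector arrays again lay between the first and second KDM5A arrays. The first array was 4.45-fold above the second for KDM5A-H483A and 3.98-fold for wild-type KDM5A, against 1.69-fold for empty vector. Here too the second KDM5A arrays lay below the table's median, and the folds may understate the difference. Group means were 5.23 ± 1.52, 5.57 ± 1.41 and 5.57 ± 0.53 (SD, n = 2), and the log2 fold change was -0.34 (95% CI -2.39 to 1.72) for KDM5A-H483A and 0.00 (95% CI -2.06 to 2.05) for wild-type KDM5A against empty vector. Without the second array of the KDM5A group these were 0.74 and 0.99, and without the first -1.41 and -1.0. A dimmer Lama4 probe set gave 3.76 and 3.48 with KDM5A-H483A and 3.98 and 3.44 with wild-type KDM5A, against 3.46 and 3.49 with empty vector. There too the first KDM5A arrays were the highest, while the second were level with empty vector. All values of this set lay below the table's median of 4.58 and may not be above background.

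In Nid2, which encodes the second nidogen, the empty vector arrays also lay between the first and second KDM5A arrays, over a narrower range. It stood at 7.39 and 7.02 with KDM5A-H483A and at 7.66 and 6.91 with wild-type KDM5A, against 7.14 and 7.15 with empty vector. In 3 of the 10 members, Hmcn1, Lama4 and Nid2, both first KDM5A arrays were above both empty vector arrays and both second ones below. This pattern was chosen after the values were seen, and it held for 821 (4.51%) of all genes. The log2 fold change of Nid2 was 0.06 (95% CI -0.56 to 0.68) for KDM5A-H483A and 0.14 (95% CI -0.48 to 0.76) for wild-type KDM5A against empty vector.

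**Figure D2:**
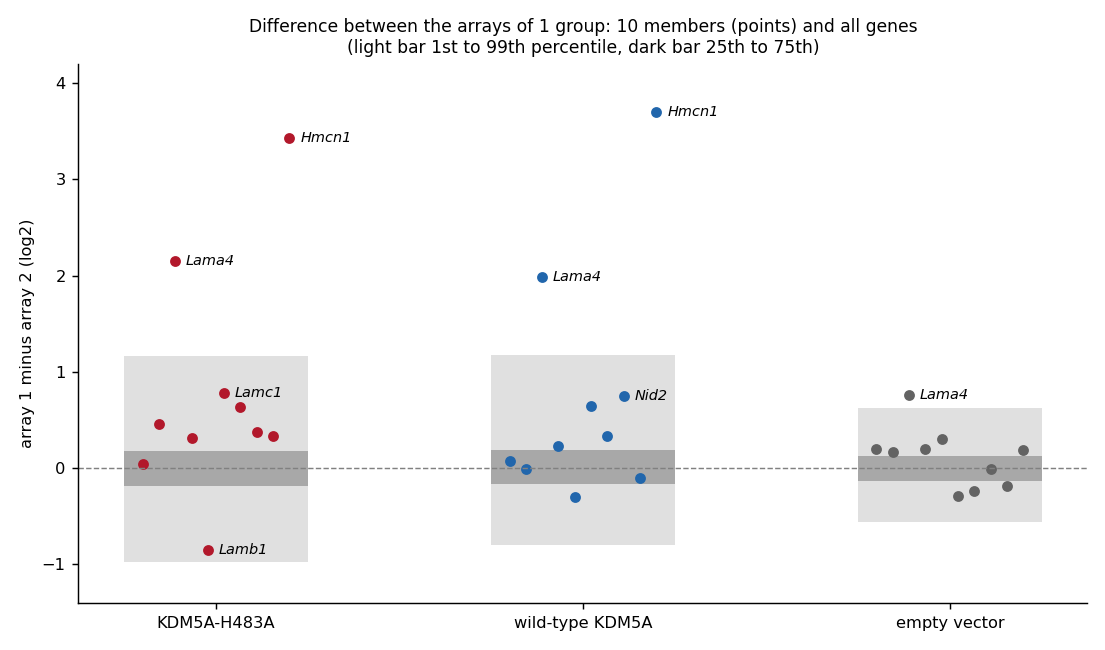
First minus second array, on the log2 scale, for the 10 members (points) in KDM5A-H483A, wild-type KDM5A and empty vector, with light bars from the 1st to the 99th and dark bars from the 25th to the 75th percentile of all genes. Hmcn1 at 3.43 and 3.70 and Lama4 at 2.15 and 1.99 lie above the light bars of the KDM5A groups, and Lama4 at 0.76 above that of empty vector.

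Arrays of a group lay at least 1 log2 unit apart for Hmcn1 and Lama4 in both KDM5A groups and for 0 members with empty vector. Over all genes this was so for 436 (2.40%) with KDM5A-H483A, 337 (1.85%) with wild-type KDM5A and 27 (0.148%) with empty vector. The median member differed between its 2 arrays by 0.54 with KDM5A-H483A, 0.32 with wild-type KDM5A and 0.20 with empty vector, against 0.19, 0.18 and 0.13 for the median gene. The first array was the higher for 9, 7 and 6 of the 10 members in these groups, where it was so for 50.2%, 52.5% and 50.3% of all genes.

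On average, the fibroblast markers moved with Hmcn1 and Lama4. Their mean log2 level was 10.23 and 9.08 in the KDM5A-H483A arrays and 10.43 and 9.08 in the wild-type KDM5A arrays, against 10.15 and 9.84 with empty vector. The first array was the higher for 11, 13 and 11 of the 13 markers measured, by a median of 0.94, 1.15 and 0.22. In 6 of the 13, both first KDM5A arrays were above both empty vector arrays and both second ones below, beside 4.51% of all genes. Vim and Thy1 ran the other way with KDM5A-H483A, at 13.00 and 13.39 and at 7.31 and 7.83. The part of the fibroblast markers in the member values was not tested. In bulk RNA, fewer cells of a type and less RNA per cell cannot be told apart.

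The 5 genes whose values followed Hmcn1 most closely, by Pearson's r over the 6 arrays among 1144 genes with a range of at least 1 log2 unit, were Col3a1 (0.998), Hpgd (0.996), Gas2 (0.996), Col1a1 (0.993) and Pdgfrb (0.993). Col3a1 and Col1a1 encode fibrillar collagens, Hpgd a prostaglandin-degrading enzyme, Gas2 a cytoskeletal protein first known from growth-arrested fibroblasts, and Pdgfrb a receptor for platelet-derived growth factor. Gas2 stood at 10.07 and 8.09 with KDM5A-H483A and at 10.47 and 8.40 with wild-type KDM5A, against 9.98 and 9.90 with empty vector. Hpgd, over a smaller range, stood at 6.16 and 5.02 with KDM5A-H483A and at 6.19 and 5.03 with wild-type KDM5A, against 5.99 and 5.86 with empty vector. All these points share the same 6 arrays, so r describes likeness only.

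Among the other alpha chains, Lama5, which joins laminins of many epithelia and vessels, had the smallest unadjusted p of the members. Its brightest probe set gave 6.96 and 6.65 with KDM5A-H483A and 6.49 and 6.27 with wild-type KDM5A, against 6.81 and 6.61 with empty vector. Both wild-type KDM5A arrays lay below the 4 others. The mean was 6.80 ± 0.22 with KDM5A-H483A and 6.38 ± 0.16 with wild-type KDM5A (SD, n = 2). They differed by 0.42 on the log2 scale (SE 0.17, 95% CI 0.02 to 0.82), with an unadjusted p of 0.0406 and a limma adjusted p of 0.928. The difference was 0.27 without the first KDM5A-H483A array. Against empty vector, at 6.71 ± 0.14, wild-type KDM5A differed by -0.33 (95% CI -0.73 to 0.07) and KDM5A-H483A by 0.09 (95% CI -0.31 to 0.49). None of these passed the threshold. The second Lama5 probe set gave 0.05 between the KDM5A forms and -0.13 for wild-type KDM5A against empty vector, and the dimmest, which stayed between 2.65 and 3.11, gave 0.14 and -0.19.

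Lama1 encodes the alpha chain of the first laminin isolated, which is typical of early embryos and some epithelia. Its single probe set lay between 3.04 and 3.24 in all arrays, below the table's median of 4.58, and may not be above background. Its log2 fold change was -0.02 (95% CI -0.33 to 0.29) for KDM5A-H483A against empty vector. Lama2, the alpha chain of muscle and nerve basement membranes, stood at 5.41 and 4.95 with KDM5A-H483A and at 5.32 and 5.33 with wild-type KDM5A, against 5.43 and 5.26 with empty vector. The groups of Lama2 overlapped, and its log2 fold change was -0.16 (95% CI -0.59 to 0.26) for KDM5A-H483A and -0.02 (95% CI -0.45 to 0.40) for wild-type KDM5A against empty vector.

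Lamb1, the beta 1 chain that most alpha chains can pair with, was highest in the second KDM5A-H483A array. It stood at 8.24 and 9.09 with KDM5A-H483A and at 7.90 and 8.21 with wild-type KDM5A, against 8.25 and 7.95 with empty vector. Both KDM5A-H483A arrays were above both wild-type ones, and the first was level with the higher empty vector array. The mean was 8.66 ± 0.60 with KDM5A-H483A and 8.06 ± 0.21 with wild-type KDM5A (SD, n = 2). They differed by 0.61 (SE 0.29, 95% CI -0.08 to 1.30), with a limma adjusted p of 0.928. Against empty vector, at 8.10 ± 0.21, it was 0.56 (95% CI -0.13 to 1.25) for KDM5A-H483A and -0.05 (95% CI -0.74 to 0.65) for wild-type KDM5A. Without the second KDM5A-H483A array the differences were 0.18 from wild-type KDM5A and 0.14 from empty vector, and without the first they were 1.03 and 0.98. Of the other 3 Lamb1 probe sets, 2 were also highest in that second array, at 5.97 and 5.49. In the set at 5.97, the first KDM5A-H483A array, at 4.85, lay below both wild-type KDM5A arrays, at 5.02 and 5.27. In the set at 5.49, the first empty vector array was close, at 5.44. The dimmest set stood at 3.35 in that second array, against 3.57 and 3.79 with empty vector.

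Lamc1 encodes the gamma 1 chain, which is shared by most laminins and carries the site that nidogen binds. Its brightest probe set gave 9.12 and 8.34 with KDM5A-H483A and 9.73 and 9.09 with wild-type KDM5A, against 8.93 and 9.21 with empty vector. The groups overlapped. KDM5A-H483A differed from wild-type KDM5A by -0.68 on the log2 scale (SE 0.31, 95% CI -1.44 to 0.07), with an unadjusted p of 0.0693 and a limma adjusted p of 0.928. The difference was -0.29 without the second KDM5A-H483A array, -1.07 without the first and -0.36 without the first wild-type array. The other Lamc1 probe set ran the opposite way, at 6.19 and 5.91 with KDM5A-H483A and 5.88 and 5.36 with wild-type KDM5A, a difference of 0.43. The direction for Lamc1 therefore depends on the probe set. Where the probes of these sets lie in the transcript is not stated in the labels.

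**Figure D3:**
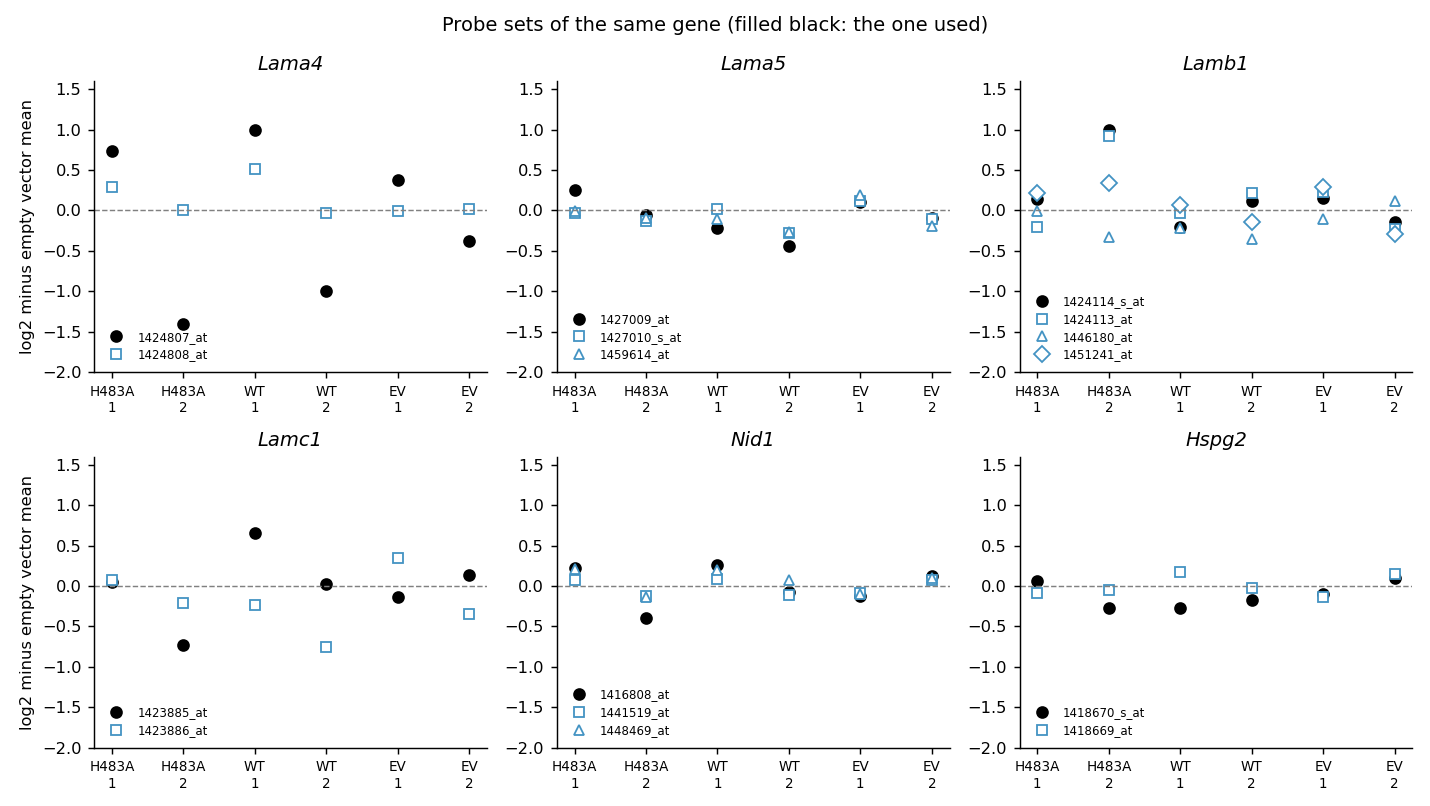
Each probe set of the 6 members with several, as log2 value minus its own empty vector mean, in the 6 arrays from KDM5A-H483A on the left to empty vector on the right, with the brightest set in filled black. The 2 Lamc1 sets lie apart in most arrays, and most so in the wild-type KDM5A arrays, and 3 of the 4 Lamb1 sets are highest in the second KDM5A-H483A array.

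Nid1, the main nidogen of most tissues, stood at 9.70 and 9.08 with KDM5A-H483A and at 9.74 and 9.41 with wild-type KDM5A, against 9.36 and 9.60 with empty vector. The first array of each KDM5A group was above both empty vector arrays and the groups overlapped. Its log2 fold change was -0.09 (95% CI -0.66 to 0.48) for KDM5A-H483A and 0.10 (95% CI -0.47 to 0.67) for wild-type KDM5A against empty vector. A second Nid1 probe set did not exceed 7.34 in any array and gave 0.04 for KDM5A-H483A and 0.13 for wild-type KDM5A against empty vector. The dimmest Nid1 set stayed between 2.53 and 2.74. Hspg2, the gene of perlecan, stood at 8.88 and 8.55 with KDM5A-H483A and 8.55 and 8.65 with wild-type KDM5A, against 8.72 and 8.92 with empty vector. Both wild-type KDM5A arrays lay below both empty vector arrays, with a log2 fold change of -0.22 (95% CI -0.60 to 0.16), while the other Hspg2 probe set gave 0.07.

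Arrays of the compared groups did not overlap for 0 of the 10 members between KDM5A-H483A and empty vector, where this was so for 28.2% of all genes. With wild-type KDM5A set against empty vector there were 2, Hspg2 and Lama5, both lower with the wild-type form, beside 31.8% of all genes. Between KDM5A-H483A and wild-type KDM5A there were also 2, Lama5 and Lamb1, both higher with KDM5A-H483A, beside 31.0% of all genes. Not every probe set of these 2 genes kept the KDM5A forms apart. The median log2 fold change of the 10 members was -0.09, -0.01 and -0.11 in these comparisons, against 0.00, 0.00 and -0.01 over all genes. In each, 3 of the 10 were above 0 and 7 below, where 50.2%, 51.3% and 48.4% of all genes were above 0. Lama1 and Lama4 counted as below 0 for wild-type KDM5A against empty vector, though both rounded to 0.00. The comparisons share arrays, so these counts are not independent of each other.

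**Figure D4:**
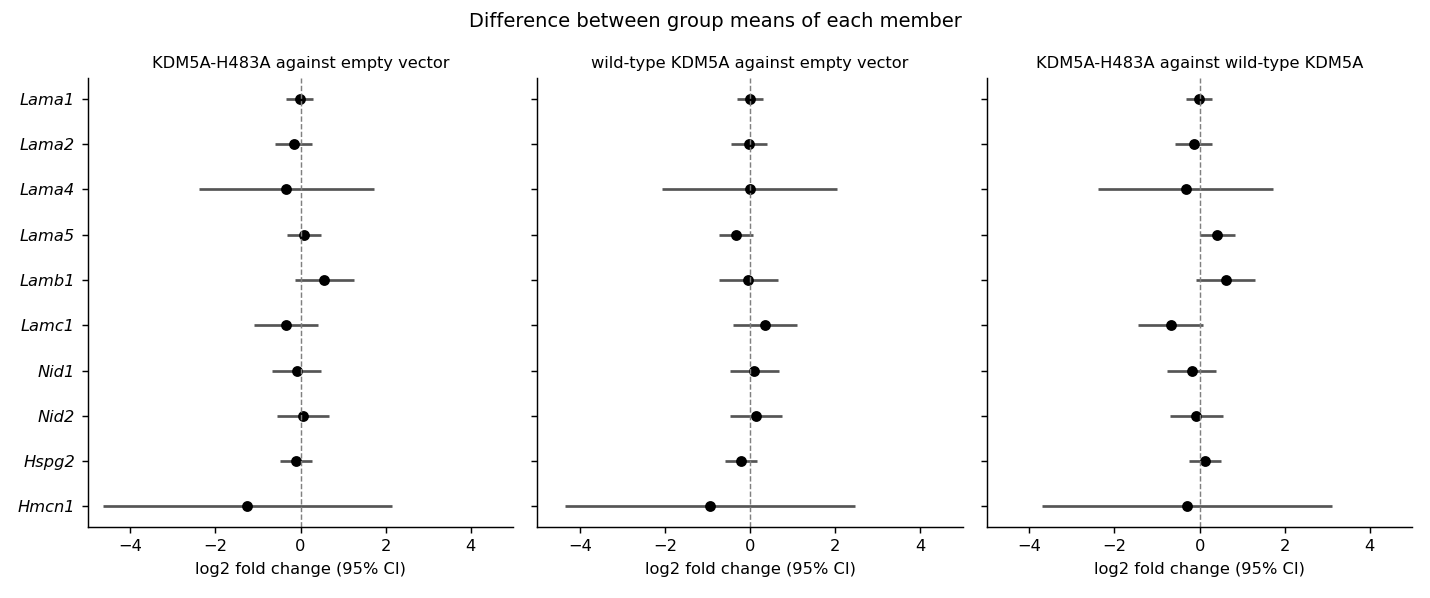
Log2 fold change of each member with its 95% confidence interval from limma, for the mutant and the wild-type form against empty vector and for the mutant against the wild-type form. Every interval includes 0 except that of Lama5 between the KDM5A forms (0.02 to 0.82), and those of Hmcn1 reach 3.40 to either side.

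The other genes of the basement membrane were taken as 5 lists, and 0 of their measured genes passed the threshold in any comparison. Of the remaining laminin chains 4 of 5 were measured. Lamb2, the beta chain of nerve synapses and the kidney filter, stood at 5.63 and 5.61 with KDM5A-H483A and at 5.78 and 4.68 with wild-type KDM5A, against 5.40 and 5.25 with empty vector. Both KDM5A-H483A arrays were above both empty vector arrays, with a log2 fold change of 0.29 (95% CI -0.50 to 1.09). Lama3, Lamb3 and Lamc3, whose chains belong mostly to epithelial and neural laminins, stayed between 3.12 and 4.50 and may not be above background.

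All 8 genes of basement membrane collagens were measured. Their median log2 fold change was -0.09 for KDM5A-H483A and 0.01 for wild-type KDM5A against empty vector. Of the 8, 2 and 5 were above 0, beside 50.2% and 51.3% of all genes, and the 5 include Col4a6 at 0.00. Col4a5, an alpha chain of collagen IV, stood at 9.37 and 7.87 with KDM5A-H483A and at 9.55 and 8.51 with wild-type KDM5A, against 8.88 and 9.01 with empty vector. Both empty vector arrays lay between the first and second KDM5A arrays. Col18a1, the precursor of endostatin, stood at 7.60 and 6.64 with KDM5A-H483A and at 7.94 and 6.85 with wild-type KDM5A, against 7.62 and 7.22 with empty vector. Col4a1 and Col4a2, the pair of chains in nearly all basement membranes, differed from empty vector by between -0.22 and 0.09 in either KDM5A group.

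Of 14 other components 13 were measured, and Npnt, the gene of the integrin ligand nephronectin, had the largest difference in both comparisons against empty vector. It stood at 6.31 and 6.51 with KDM5A-H483A and at 6.61 and 6.70 with wild-type KDM5A, against 5.48 and 5.47 with empty vector. Both arrays of each KDM5A group were above both empty vector arrays, by 0.94 (95% CI 0.63 to 1.25, unadjusted p = 0.000253) with the mutant and 1.19 (95% CI 0.87 to 1.5, unadjusted p = 6.36e-05) with the wild-type form, but with limma adjusted p of 0.999 and 1. Tinagl1, the gene of a laminin-associated secreted protein, stood at 7.15 and 7.81 with KDM5A-H483A and at 6.84 and 7.23 with wild-type KDM5A, against 6.66 and 6.71 with empty vector. The mutant differed from empty vector by 0.79 (95% CI 0.21 to 1.38), with an unadjusted p of 0.0156 and a limma adjusted p of 0.999. Papln, a papilin gene, was the one other gene with an unadjusted p under 0.05, at 3.37 and 3.60 with KDM5A-H483A and 3.78 and 3.89 with wild-type KDM5A (log2 fold change -0.35), levels that may not be above background. The lowest fold changes were those of Ntn1, a netrin, for KDM5A-H483A against empty vector (-0.63) and against wild-type KDM5A (-0.55), and of Fbln2, a fibulin, for wild-type KDM5A against empty vector (-0.47). Smoc2, a calcium-binding matrix protein, had the highest between the KDM5A forms (0.48). Agrn, the heparan sulfate proteoglycan agrin, stood at 8.14 and 7.33 with KDM5A-H483A and at 8.72 and 7.22 with wild-type KDM5A, against 7.98 and 7.72 with empty vector. The first KDM5A arrays were above both empty vector arrays and the second below. Agrn and Col18a1 were singled out after their values were seen.

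All 13 laminin receptor genes were measured, with medians of 0.00 for KDM5A-H483A and 0.08 for wild-type KDM5A against empty vector. Itga6, the alpha subunit of the main laminin-binding integrins, stood at 9.08 and 9.42 with KDM5A-H483A and at 8.96 and 10.08 with wild-type KDM5A, against 8.49 and 9.29 with empty vector. Its second array was the higher in every group, opposite to Hmcn1, and its log2 fold change was 0.36 (95% CI -0.63 to 1.35) for KDM5A-H483A and 0.63 (95% CI -0.36 to 1.63) for wild-type KDM5A against empty vector. Rpsa, a ribosomal protein also described as a laminin receptor, had the highest value between the KDM5A forms (0.33). The lowest were Itgb4, an integrin subunit of hemidesmosomes, for KDM5A-H483A against empty vector (-0.16, at levels between 3.82 and 4.02 that may not be above background), the syndecan Sdc4 for wild-type KDM5A against empty vector (-0.30), and Itga6 between the KDM5A forms (-0.27).

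Of 17 genes for assembly and crosslinking 13 were measured, with medians of -0.02 and -0.07 for KDM5A-H483A and wild-type KDM5A against empty vector. In the first of these comparisons the range ran from Pxdn, the peroxidase that crosslinks collagen IV (-0.35), to P4ha2, a prolyl hydroxylase subunit (0.27). For wild-type KDM5A against empty vector it ran from Serpinh1, a collagen chaperone (-0.31), to Colgalt1, a collagen galactosyltransferase (0.31). Between the KDM5A forms it ran from Colgalt1 (-0.37) to P4ha2 (0.40). Serpinh1 was lower in the second array of both KDM5A groups, at 11.48 and 10.53 with KDM5A-H483A and 11.46 and 10.40 with wild-type KDM5A, against 11.33 and 11.15 with empty vector.

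**Figure D5:**
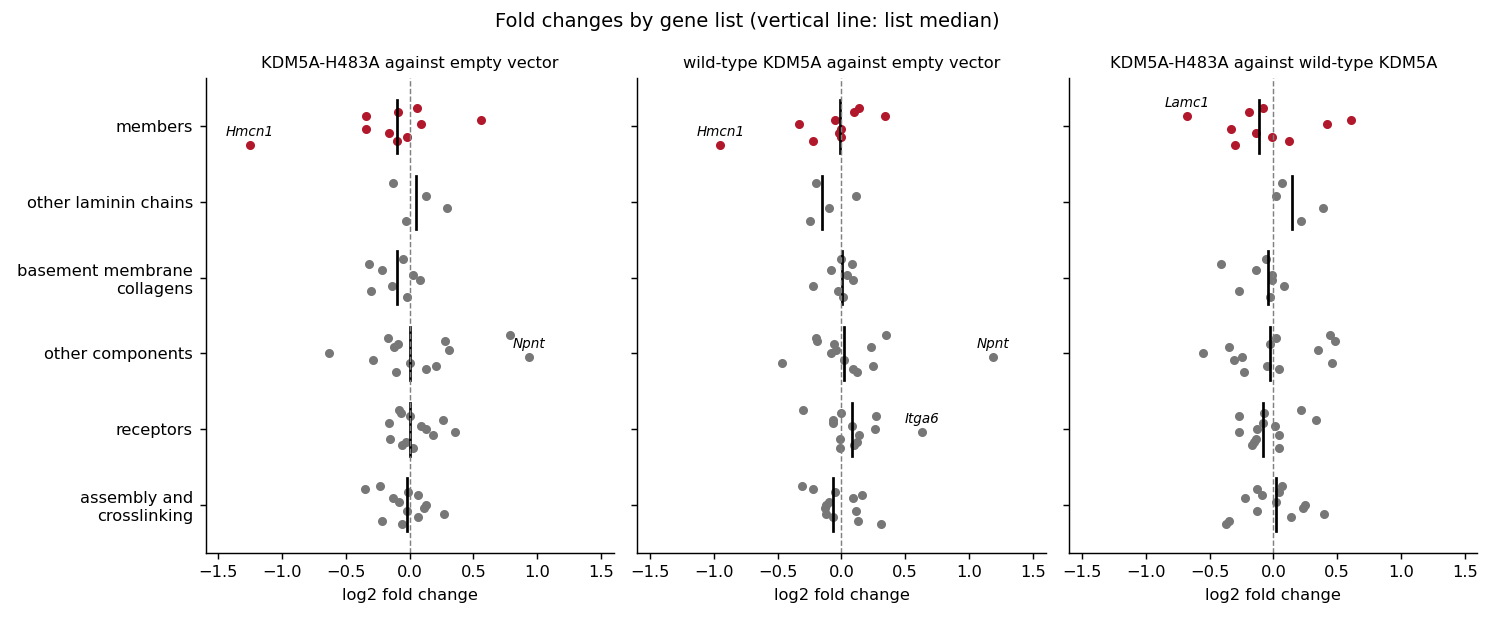
Log2 fold changes of the members (top row) and of 5 lists of basement membrane genes in the 3 comparisons, 1 point per gene, with a vertical line at each list's median. The medians lie between -0.15 and 0.15, and in both comparisons against empty vector the points farthest from 0 are Hmcn1 below and Npnt above.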

How the data were processed

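Total RNA was measured on 6 Affymetrix mouse M430 2.0 arrays, 2 each for KDM5A-H483A, wild-type KDM5A and empty vector, grouped by the labels. The authors deposited log2 values of 45101 probe sets in 1 table, and the submitters' processing notes name RMA, with no version. The labels do not tell how the whole-transcript labelling kit they name was combined with this array. The deposited log2 values were used unscaled. RMA compresses differences of weak genes, and since array values carry no depth, precision depends on the number of arrays.

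The platform annotation paired 34958 probe sets with 1 gene, and 34754 of these were matched to current symbols by Entrez ID. Each gene took its probe set with the highest mean among those not ending in _x_at, giving 18194 genes. Limma 3.58.1 in R 4.3.3 (lmFit, eBayes) was fitted with 1 mean per group over all 6 arrays, with 3 residual degrees of freedom, two-sided tests and Benjamini-Hochberg adjustment over all genes at 0.05. The procedure was also run on simulated data with no effect and on these arrays with shifts added, and the outcome is not given here. The members and lists were chosen with earlier results of these data known. Named genes were all members, the genes with extreme fold changes or an unadjusted p under 0.05 in each basement membrane list, and the 5 genes most like the member of widest range, which also had the largest difference from empty vector. Promoter windows came from RefSeq, GRCm38.p6. Some genes of the lists were not analysed here. Alternatives were the replicate block, other probe set rules, a filter on dim genes, centring, another spread estimate, 2-group fits and leaving out each array.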

Additional observations from a re-analysis of the deposited data

How the results depend on the processing

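Limma called 0 genes in each comparison under each alternative that was run, and no member passed the threshold in any (lowest adjusted p 0.23). At an unadjusted limma p under 0.05, counts are given for fits of all 18194 genes that kept both arrays of each compared group. They ranged from 279 to 502 for KDM5A-H483A against empty vector and from 458 to 713 for wild-type KDM5A against empty vector. Between the KDM5A forms they ranged from 416 to 922, where the reported fits gave 301, 459 and 694 in this order. The highest came with the replicate block each time. The lowest came with centred arrays in both comparisons against empty vector, and with 2-group fits between the KDM5A forms. The filter on dim genes tested 11890 genes and another alternative all 34958 probe sets, so their counts are not set beside these. Besides leaving out arrays, the direction of a member was kept in 201 of 207 alternatives, but many of these could not change it. The replicate block, the test of every probe set and the filter on dim genes leave a member's fold change as it was. So do the other spread estimate and fits of the compared groups alone. The direction of a member could turn only with centred arrays, or with the mean of all probe sets for members with several. It turned with the mean of all probe sets for Lama4 (0.12) and Lamc1 (-0.08) in wild-type KDM5A against empty vector, Lama5 (-0.01) in KDM5A-H483A against empty vector and Hspg2 (-0.01) between the KDM5A forms, and with centred arrays for Lama1 and Lama4 (0.01 each) in wild-type KDM5A against empty vector. The filter on dim genes left out Lama1, so that alternative gives no value for it.

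Leaving out 1 array turned the direction of 23 of 30 member differences in at least 1 fit. A group left with 1 array was assumed to vary like the others. For KDM5A-H483A against empty vector the log2 fold changes ran for Lama1 from -0.12 to 0.08, Lama2 from -0.39 to 0.07, Lama4 from -1.41 to 0.74, Lama5 from -0.06 to 0.25, Lamc1 from -0.73 to 0.05, Nid1 from -0.40 to 0.22, Nid2 from -0.12 to 0.25, Hspg2 from -0.27 to 0.06 and Hmcn1 from -2.96 to 0.47. For wild-type KDM5A against empty vector they ran for Lama1 from -0.10 to 0.10, Lama2 from -0.10 to 0.06, Lama4 from -1.0 to 0.99, Lamb1 from -0.20 to 0.10, Nid1 from -0.07 to 0.26, Nid2 from -0.23 to 0.52 and Hmcn1 from -2.79 to 0.90. For KDM5A-H483A against wild-type KDM5A they ran for Lama1 from -0.05 to 0.02, Lama2 from -0.37 to 0.09, Lama4 from -1.41 to 0.75, Nid1 from -0.50 to 0.13, Nid2 from -0.45 to 0.29, Hspg2 from -0.04 to 0.29 and Hmcn1 from -2.15 to 1.55. For these values the result depends on which array is left out, and the cause was not tested.

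With the replicate number as a block limma again called 0 genes in each comparison, with 502, 713 and 922 genes at an unadjusted p under 0.05 in the order above. Between the KDM5A forms the unadjusted p was 0.0137 for Lama5 and 0.034 for Lamc1, with a limma adjusted p of 0.795. For wild-type KDM5A against empty vector it was 0.0364 for Lama5, against 0.0877 without the block, with a limma adjusted p of 0.998. Differences between first and second arrays correlated across genes at 0.53 between the KDM5A groups, 0.02 for KDM5A-H483A with empty vector and 0.31 for wild-type KDM5A with empty vector. With 2 numbers this does not show that equal numbers pair the samples, and the block result is given for description.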

Other observations

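Of 8 epithelial marker genes, Krt19, a keratin of simple epithelia, was the one with a range of at least 1 log2 unit. It stood at 5.42 and 7.01 with KDM5A-H483A and at 5.25 and 6.30 with wild-type KDM5A, against 5.27 and 5.38 with empty vector, so the second array of each KDM5A group was the higher, opposite to Hmcn1. Krt8, which encodes another keratin of such epithelia, stood at 5.79 and 5.61 with KDM5A-H483A and at 5.77 and 5.62 with wild-type KDM5A, against 5.56 and 5.96 with empty vector. The mean level of the 8 markers was 4.14 and 4.29 with KDM5A-H483A and 4.01 and 4.11 with wild-type KDM5A, against 4.04 and 4.10 with empty vector. Both keratins were picked with their values in view. The part of such cells in the member values was not tested.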
